A study of Homo sapiens with 24 samples.

Results

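The 39 genes of the human HOX clusters were examined in the isogenic ovarian cancer cell lines A2780, which is platinum-sensitive, and A2780cis, which is platinum-resistant. They were taken by name, as the rows of the count table whose identifier belongs to a protein-coding gene called HOXA, HOXB, HOXC or HOXD with a number, and made up 39 of its 63299 rows. Cells of each line were grown for 6 h or 12 h in standard medium, here called untreated, or in medium with 1 μM 5-FdU-ECyd, a duplex drug that joins the nucleoside analogues 5-fluorodeoxyuridine and ethynylcytidine. Each of the 8 groups held 3 libraries made from total RNA with a stranded kit, 24 in all. A2780cis was kept resistant by a passage in 1 μM cisplatin every few passages, so the lines differ in that history as well as in sensitivity, and they are 1 pair of cell lines. The study calls the triplicates biological replicates, without saying whether each came from a culture of its own, and the p-values measure the spread between these libraries.

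HOX genes encode homeodomain transcription factors that give cells their position along the axis of the embryo. They lie in 4 clusters, and genes at the same place in different clusters (paralog groups, numbered from 1 at the 3′ end to 13 at the 5′ end) descend from a common ancestor. In the embryo the 3′ genes are switched on first and nearer the head, the 5′ genes later and nearer the tail. Genes toward the 5′ end pattern the Müllerian duct, from which the oviduct, uterus and upper vagina arise, and many adult tissues and tumours keep a HOX profile that reflects where they came from.

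HOXA lies on chromosome 7 (GRCh38, 27092993 to 27200091, 11 genes), HOXB on chromosome 17 (48528526 to 48728750, 10 genes), HOXC on chromosome 12 (53938831 to 54056030, 9 genes) and HOXD on chromosome 2 (176092721 to 176190907, 9 genes). The genes of HOXA and HOXB are read from the minus strand and those of HOXC and HOXD from the plus strand. HOXD was the cluster that A2780 expressed and untreated A2780cis lacked but for 2 counts, so the start regions of 4 of its genes are shown: the 250 bases before the RefSeq start (GRCh38.p14, plus strand), with every TAAT, the core read by homeodomain proteins, in capitals on either strand (ATTA is its reverse complement).
HOXD3, chr2:176157057-176157306: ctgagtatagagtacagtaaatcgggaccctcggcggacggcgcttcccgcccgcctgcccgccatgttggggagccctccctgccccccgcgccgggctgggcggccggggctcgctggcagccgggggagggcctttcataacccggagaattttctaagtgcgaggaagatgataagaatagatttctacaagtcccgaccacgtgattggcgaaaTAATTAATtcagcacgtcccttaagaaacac
HOXD4, chr2:176151300-176151549: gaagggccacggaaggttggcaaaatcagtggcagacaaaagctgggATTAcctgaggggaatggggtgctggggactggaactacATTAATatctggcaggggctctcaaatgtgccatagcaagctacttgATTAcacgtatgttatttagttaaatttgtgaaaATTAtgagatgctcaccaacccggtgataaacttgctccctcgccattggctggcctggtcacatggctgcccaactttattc
HOXD8, chr2:176129455-176129704: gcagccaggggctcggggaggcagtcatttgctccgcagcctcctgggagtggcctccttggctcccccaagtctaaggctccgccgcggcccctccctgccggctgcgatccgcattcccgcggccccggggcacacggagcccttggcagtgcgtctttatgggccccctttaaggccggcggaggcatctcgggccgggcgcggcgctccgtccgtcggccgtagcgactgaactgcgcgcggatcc
HOXD10, chr2:176116528-176116777: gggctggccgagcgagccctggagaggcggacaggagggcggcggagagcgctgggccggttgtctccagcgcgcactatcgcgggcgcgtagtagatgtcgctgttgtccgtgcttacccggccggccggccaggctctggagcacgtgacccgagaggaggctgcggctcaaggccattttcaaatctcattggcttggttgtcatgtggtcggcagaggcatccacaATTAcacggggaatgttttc
The HOXD3 and HOXD4 windows lie within introns of HOXD3, the HOXD10 window in an intron of a longer HOXD10 transcript, and the last 11 bases of the HOXD8 window are exonic in GENCODE release 44. They did not look alike. The HOXD3, HOXD8 and HOXD10 windows held 21, 28 and 23 CG dinucleotides, against a median of 11 over 34788 windows of the same length, and the HOXD4 window held 4. The TAAT core occurred 5 times in the HOXD4 window, 3 times in that of HOXD3, 1 time in that of HOXD10 and not in that of HOXD8, and 47.5% of all windows held at least 1. The motif TGATNNAT, bound by HOX proteins together with PBX, and AGGTCA, the half-site of retinoic acid receptors, were in none of the 4 windows on either strand, against 6.49% and 12% of all windows. Of the 39 genes, 20 had a window in the RefSeq table.

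The libraries held between 11077368 and 21901406 counts. Levels are given as CPM, the counts of a gene scaled to library size after TMM normalization, and levels of different genes are compared only as CPM per kb of exon. Of the 39 genes, 22 had enough counts to be tested, but only 13 of them passed the count cutoff in at least 3 libraries of both lines. HOXB8, HOXD3, HOXD4, HOXD8, HOXD9 and HOXD10 passed only through A2780, and HOXB13, HOXC12 and HOXC13 only through A2780cis, HOXC13 through its 3 treated libraries at 12 h alone, so these 9 were tested only because a group of 1 line was high. The 17 that were not tested were the 11 HOXA genes, HOXB1, HOXC11, HOXD1, HOXD11, HOXD12 and HOXD13. As marker check, the ovarian carcinoma and Müllerian markers PAX8, ESR1, SOX17, WT1 and MUC16 were all under 1 CPM in each untreated library of both lines, with SOX17 at 0 throughout. The summed level of 3 mesenchymal markers was 2116 to 2648 CPM in untreated A2780 and 2310 to 2860 CPM in untreated A2780cis. The 3 fibroblast markers summed to 35 to 74.9 CPM in A2780 and 0.401 to 2.48 CPM in A2780cis, and the 6 epithelial markers to 2.09 to 4.37 and 25 to 32.7 CPM. Of the epithelial markers, KRT7, CDH1 and KRT19 were under 1 CPM in both lines. EPCAM was under 1 CPM in A2780cis but not in A2780, so the higher sum of A2780cis lay mostly in KRT8 and KRT18. The endothelial markers CDH5 and PECAM1 were at 0 in every untreated library. Of the 3 blood markers, PTPRC was at 0 throughout, CD3E stayed under 1 CPM, and CD68 was over 1 CPM in each line. The 3 summed to 2.44 to 3.88 CPM in untreated A2780 and 6.42 to 8.38 CPM in untreated A2780cis. The part of these marker differences in the HOX differences below was not tested, and in bulk RNA fewer cells with a transcript cannot be told apart from less of it per cell.

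The clusters shared the HOX level differently in the 2 lines, while its sum was close at 12 h. At 12 h the untreated A2780 libraries held 128, 136 and 146 CPM per kb over all 39 genes (137 ± 9.17, SD, n = 3) and the untreated A2780cis libraries 130, 142 and 149 (140 ± 9.64). These libraries overlapped and their means differed by less than 1 SD. At 6 h the totals were 118, 128 and 127 in A2780 (124 ± 5.22) and 140, 162 and 147 in A2780cis (150 ± 11.7), without overlap.

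HOXC held most of the level in both lines and more of it in A2780cis. In untreated A2780 at 12 h HOXC summed to 76.7, 85.3 and 90.2 CPM per kb, and in A2780cis to 112, 123 and 129, a mean of 61.5% and 86.4% of the HOX level. HOXB went the other way, with 45.4, 46.6 and 50.9 CPM per kb in A2780 and 18, 19.4 and 19.7 in A2780cis, or 34.9% and 13.5% of the level. HOXD gave 5.46, 4.11 and 4.93 CPM per kb in A2780 and 0, 0.0298 and 0 in A2780cis. HOXA reached at most 0.142 CPM per kb in any library of the series. For HOXB, HOXC and HOXD the 3 libraries of 1 line did not overlap with those of the other at either time.

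**Figure D1:**
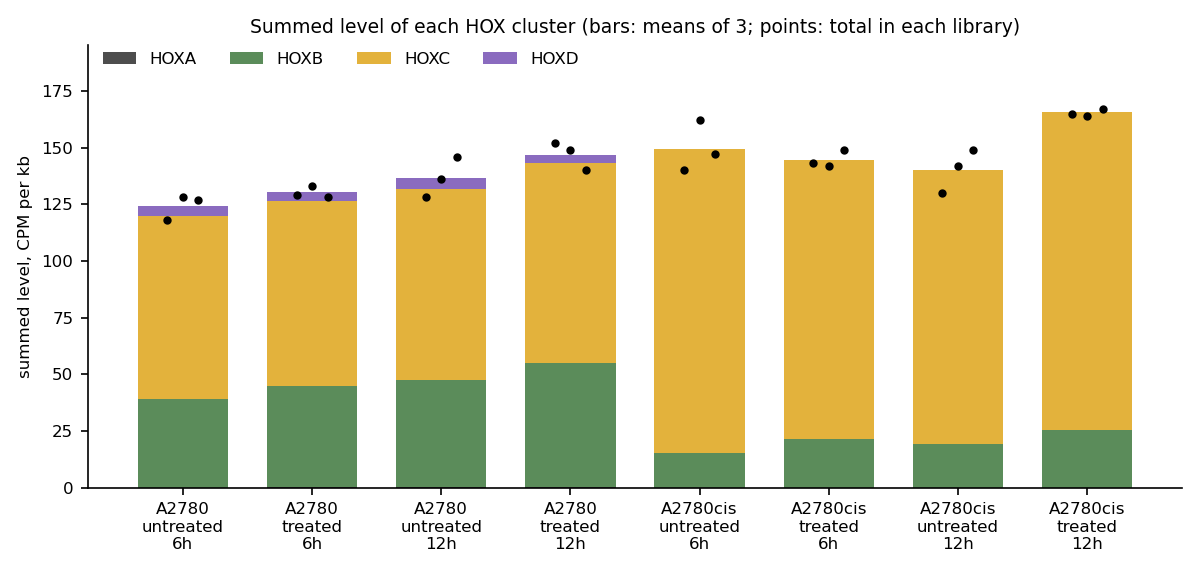
Summed level of the HOX clusters in CPM per kb of exon (y axis, from 0) in the 8 groups (x axis); coloured bars are means of 3 libraries and black points the total of each library. In untreated cells at 12 h the totals, 137 and 140 CPM per kb, nearly coincide while HOXB falls from 47.6 to 19 and HOXC rises from 84.1 to 121 between A2780 and A2780cis.

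Per kb of exon the leading genes of untreated A2780 at 12 h were HOXC9 (22.7 ± 2.36 CPM per kb, SD, n = 3), HOXC8 (20.8 ± 0.764) and HOXC6 (20.4 ± 1.87), whose spreads overlapped, followed by HOXC10 (15.8 ± 1.92), HOXB9 (12.4 ± 1.33), HOXB2 (8.82 ± 0.382) and HOXB4 (7.94 ± 0.398). In A2780cis HOXC10 stood first (43.4 ± 4.14), clear of HOXC9 (30 ± 2.08) and HOXC6 (25.7 ± 0.796). HOXC8 (10 ± 0.34), HOXB2 (9.87 ± 0.397) and HOXC4 (9.78 ± 0.751) came next and did not differ beyond their spread. HOXC10 alone made up 30.9% ± 0.847 of the HOX level of A2780cis and 11.6% ± 0.697 of that of A2780. Within paralog group 9, HOXC9 led in both lines, and HOXB9 and HOXD9 were lower in A2780cis. The group summed to 36.8 ± 3.24 CPM per kb in A2780 and 30.3 ± 2.07 in A2780cis at 12 h, and to 32.1 ± 0.457 and 36 ± 3.12 at 6 h. At 12 h HOXB9 gave 12.4 and HOXD9 1.64 CPM per kb of it in A2780 and 0.283 and 0 in A2780cis, where HOXC9 made up nearly all.

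**Figure D2:**
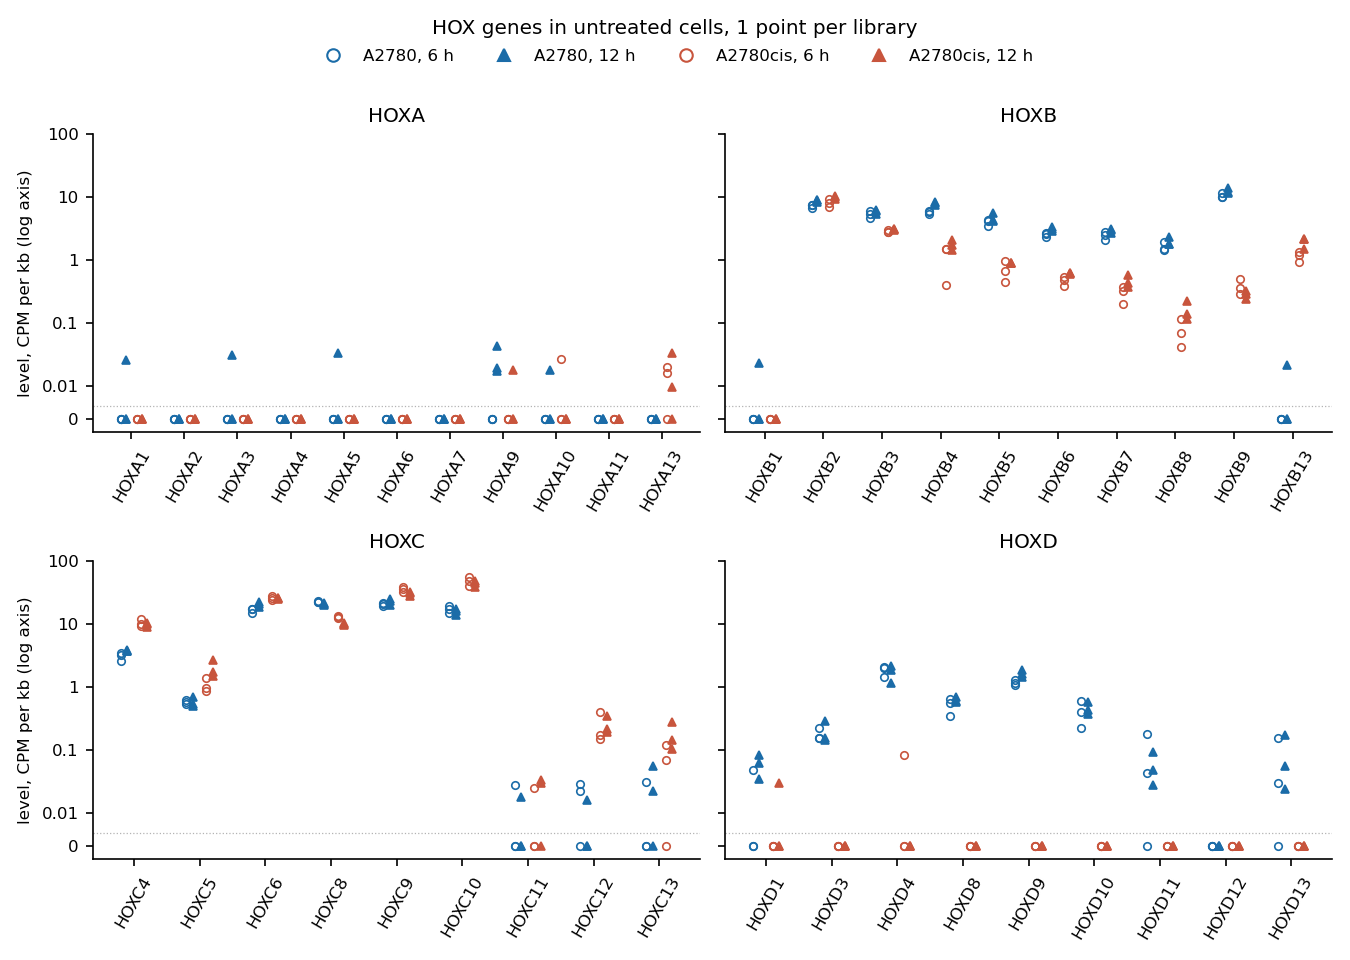
Level of each HOX gene in CPM per kb of exon (y axis, log scale, with 0 drawn below the dotted line) in the 12 untreated libraries, by cluster and paralog position (x axis); blue is A2780, red A2780cis, circles 6 h and triangles 12 h. Blue and red points meet at HOXB2 and part toward HOXB9, red lies above blue at HOXB13, HOXC4, HOXC10 and HOXC12, and in HOXD the red points lie at 0 but for 2.

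The comparison of the untreated lines asks how the HOX profile of the resistant cells differs from that of the sensitive ones. Of the 22 genes tested, 20 differed at 6 h (7 higher and 13 lower in A2780cis) and 21 at 12 h (8 higher and 13 lower), tested with the quasi-likelihood model of edgeR and adjusted over all genes by the Benjamini-Hochberg method. Over all 20240 genes tested, 47.9% differed at 6 h and 52.9% at 12 h. The libraries of the 2 lines did not overlap for 52% of all tested genes at 6 h and 62.3% at 12 h. Of the 13 genes past the cutoff in both lines, 12 differed at each time. Over these 13 the median log2 fold change, A2780cis over A2780, was -0.82 at 6 h and -0.93 at 12 h, against 0.01 and -0.01 over all genes. Over all 22 it was -1.60 and -1.63, a value that the 9 genes tested only because 1 line was high enter with large folds. For these 9 genes the p-values between the lines are given as description, since the filter let them in through the line that was high.

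In HOXB the difference widened from the 3′ to the 5′ genes and turned at the last. HOXB2, which patterns the hindbrain, had log2 fold changes of 0.18 ± 0.11 (SE) at 6 h and 0.16 ± 0.11 at 12 h and did not pass the test (edgeR adjusted p = 0.206 and 0.217). HOXB3 was lower in A2780cis by a log2 fold change of -0.93 ± 0.10 at 12 h, and HOXB4, known from the expansion of blood stem cells, HOXB5 and HOXB6 by -2.20 ± 0.18, -2.37 ± 0.20 and -2.33 ± 0.17. HOXB7 followed with -2.67 ± 0.20, HOXB8 with -3.59 ± 0.30 and HOXB9 with -5.43 ± 0.17. Of these HOXB8 passed the filter through A2780 alone, with 6 and 22 counts in untreated A2780cis at 6 h and 12 h, so its step is a description. At 6 h the same genes gave -0.89, -2.31, -2.53, -2.42, -3.01, -4.36 and -4.79, in the same order. At both times the steps ran with position except that HOXB6 stood above HOXB5 by less than 1 SE. HOXB1, at the 3′ end, had at most 1 count in any group.

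HOXB9 changed most among the genes that both lines expressed. In untreated A2780 it stood at 25.6, 29.6 and 26.2 CPM at 6 h and 30.5, 29.6 and 36 CPM at 12 h, and in A2780cis at 0.924, 1.3 and 0.736 CPM and 0.819, 0.618 and 0.756 CPM. Every A2780 library stood far above every A2780cis library (edgeR adjusted p = 1.18e-17 and 1.44e-19). HOXB7 was at 4.09, 4.75 and 4.57 CPM in A2780 and 0.867, 0.561 and 0.648 CPM in A2780cis at 12 h, and at 3.16, 3.78 and 4.27 against 0.555, 0.301 and 0.491 CPM at 6 h (edgeR adjusted p = 1.53e-11 and 2.98e-10). HOXB6 was at 8.18, 7.41 and 8.58 CPM in A2780 and 1.59, 1.63 and 1.57 CPM in A2780cis at 12 h, and at 6.03, 6.62 and 6.91 against 1.39, 1 and 1.23 CPM at 6 h (edgeR adjusted p = 6.66e-12 and 1.52e-10). No library of one line overlapped with the other for these genes. HOXB6 shares 16.6% of its exon bases with HOXB3 on its strand and 16.3% with the antisense HOXB-AS3, and reads there count for each gene they overlap.

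HOXB13, the 5′-most gene of the cluster and best known from prostate and colon, was the exception. It passed the filter through A2780cis alone, so its p-values describe the difference without testing it. A2780 held no HOXB13 count at 6 h and 1 at 12 h (0.066, 0 and 0 CPM), while A2780cis was at 3.7, 4.01 and 2.78 CPM and 4.53, 6.51 and 6.53 CPM. At 6 h this was at least 40.9-fold higher in A2780cis, taking 3 counts over the 3 A2780 libraries as the floor, and at 12 h the ratio of the summed counts, 331 to 1, was 301 with an exact 95% counting interval from 53.6 to 11914 (edgeR adjusted p = 1.4e-10 and 4.39e-13). PRAC1 and PRAC2, the genes between HOXB9 and HOXB13, did not come with it: their means were at most 0.034 CPM in untreated cells of either line. TTLL6, beyond HOXB13, averaged at most 0.299 CPM in the untreated groups.

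**Figure D3:**
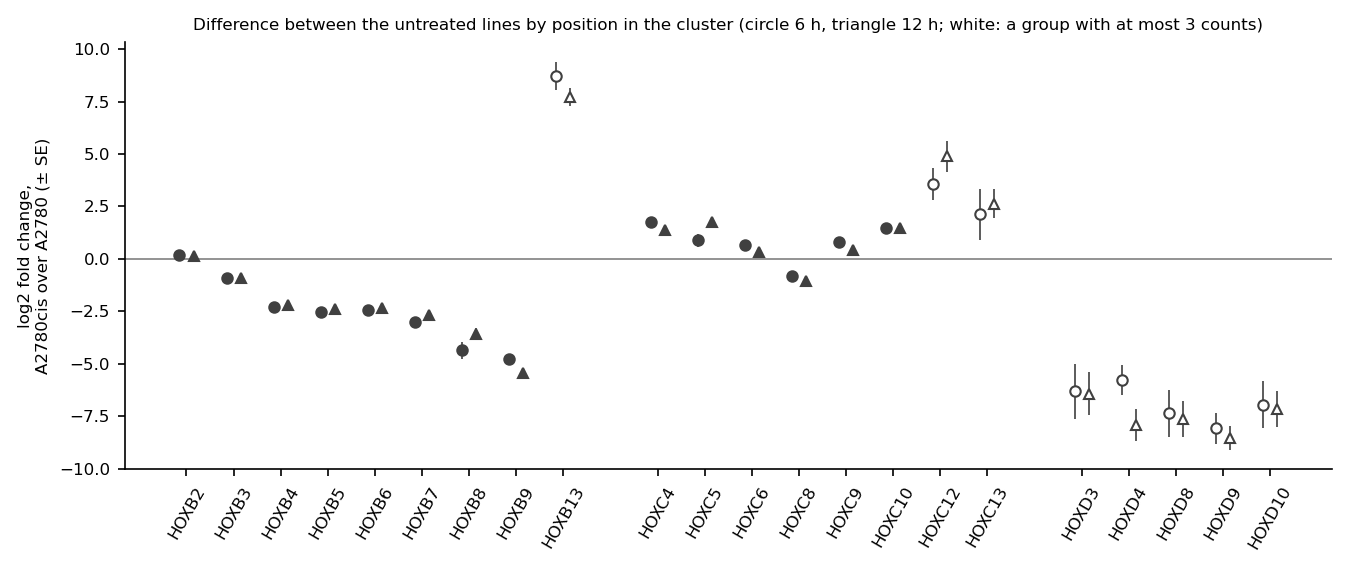
Log2 fold change of untreated A2780cis over untreated A2780 (y axis, with SE bars) for the 22 HOX genes tested, in paralog order within each cluster (x axis); circles are 6 h, triangles 12 h, and white symbols mark genes with at most 3 counts in 1 group, whose fitted value depends on the prior count. The HOXB values step down from 0.16 at HOXB2 to -5.43 at HOXB9 at 12 h before HOXB13 turns positive, 7 of the 8 HOXC genes lie above 0, and the 5 HOXD genes lie between -8.54 and -5.78.

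In HOXC, 6 of 8 tested genes were higher in A2780cis at 6 h and 7 of 8 at 12 h, and HOXC8 was lower at both. HOXC12 and HOXC13 were tested only through A2780cis. Of the 6 past the cutoff in both lines, 5 were higher and 1 lower at each time. Over all genes 47.9% differed at 6 h and 52.9% at 12 h. HOXC10 stood at 35.5, 46.4 and 41.3 CPM in untreated A2780 and 96, 133 and 112 CPM in A2780cis at 6 h, and at 32.5, 38.4 and 41.5 against 92.4, 105 and 112 CPM at 12 h. Its log2 fold changes were 1.47 ± 0.12 and 1.45 ± 0.12 (edgeR adjusted p = 5.24e-11 and 3.78e-11), without overlap between the lines. HOXC4, the 3′-most gene of the cluster, was at 8.76, 9.56 and 7.09 CPM in A2780 and 28, 33.3 and 25.8 CPM in A2780cis at 6 h, and at 10.4, 10.2 and 10.6 against 25, 27.1 and 29.1 CPM at 12 h (1.77 ± 0.14 and 1.38 ± 0.13, edgeR adjusted p = 2.22e-11 and 7.17e-10).

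HOXC8 lies between these genes and went against them. It was at 54.6, 55.6 and 54.8 CPM in A2780 and 32.2, 31.5 and 29.6 CPM in A2780cis at 6 h, and at 48.5, 49.8 and 52.2 against 23.3, 24.3 and 24.9 CPM at 12 h (-0.82 ± 0.10 and -1.05 ± 0.09, edgeR adjusted p = 4.75e-08 and 3.17e-10). Its neighbours HOXC6 and HOXC9 were higher in A2780cis, by 0.33 ± 0.08 and 0.40 ± 0.09 at 12 h and 0.66 ± 0.09 and 0.80 ± 0.10 at 6 h. HOXC5 was higher by 1.75 ± 0.25 at 12 h and 0.89 ± 0.31 at 6 h, the latter not past the threshold without A2780 replicate 1 or 2 or A2780cis replicate 1 (edgeR adjusted p up to 0.122). Of the HOXC5 exon bases, 67.3% are shared with other same-strand transcripts, and reads there count for each gene they overlap. The same holds for 17.5% of the HOXC4 bases, shared with HOXC6 among others, and 16.1% of the HOXC6 bases, shared with HOXC9 and HOXC4 among others.

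At the 5′ end of HOXC the levels were low and higher in A2780cis, as for HOXB13. HOXC12 and HOXC13 also passed the filter through A2780cis alone, so their p-values between the lines are descriptions. HOXC12 had 2 counts over the 3 untreated A2780 libraries at 6 h and 1 at 12 h, while A2780cis was at 0.555, 1.3 and 0.491 CPM and 0.626, 1.12 and 0.702 CPM. The ratios of summed counts were 13.4 (exact 95% counting interval 3.35 to 117) and 41.8 (7.14 to 1686), with edgeR adjusted p = 0.000407 and 6.31e-06. HOXC13, which takes part in hair and nail formation, was at 0.132, 0 and 0.0514 CPM in A2780 and 0.241, 0.337 and 0.648 CPM in A2780cis at 12 h, a ratio of 6.97 (2.1 to 36.2, edgeR adjusted p = 0.00241). At 6 h its 5 counts against 1 did not pass the test (edgeR adjusted p = 0.154). HOXC11 had at most 5 counts in any group. Summed over the 4 clusters, paralog group 13 reached 2.11 ± 0.448 CPM per kb in untreated A2780cis at 12 h and 0.116 ± 0.0852 in A2780.

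The HOXD genes, which pattern the limbs and the hind part of the body, were expressed at low level in A2780 and all but missing from A2780cis. The 5 tested passed the filter through A2780 alone, so the p-values of HOXD genes between the lines describe the difference without testing it. HOXD9 stood at 2.44, 2.18 and 2 CPM in A2780 at 6 h and 3.5, 2.66 and 3.03 CPM at 12 h, with no count in the 6 untreated A2780cis libraries, which allows at most 0.0909 and 0.0525 CPM. It was at least 24.5-fold and 58-fold lower in A2780cis (edgeR adjusted p = 3.8e-08 and 2.61e-10). HOXD4 was at 2.37, 1.61 and 2.27 CPM and 2.44, 1.33 and 2.11 CPM in A2780. In A2780cis it had 1 count at 6 h, a ratio of 69.8 (exact 95% counting interval 12.1 to 2792), and none at 12 h, at least 37.1-fold lower (edgeR adjusted p = 8.31e-07 and 2.24e-08).

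HOXD8 was at 1.44, 1.7 and 0.909 CPM in A2780 at 6 h and 1.58, 1.8 and 1.49 CPM at 12 h. HOXD10 was at 1.01, 1.51 and 0.546 CPM and 0.924, 1.45 and 1.08 CPM. Both had no count in untreated A2780cis and were at least 14.9-fold and 11.2-fold lower there at 6 h and at least 30.8-fold and 22-fold lower at 12 h (at 12 h edgeR adjusted p = 2.13e-07 and 1.15e-06). HOXD3 was at least 7.13-fold lower at 6 h and 13.2-fold at 12 h. HOXD3, HOXD4, HOXD8 and HOXD10, whose start windows printed above differ in CG count and TAAT cores, were thus all near or at 0 in untreated A2780cis. HOXD11 and HOXD13 had 5 to 11 counts per untreated A2780 group and none in untreated A2780cis, HOXD1 had 1 and 6 counts against 0 and 1, and HOXD12 had no count in any library. Of the genes outside HOXD, LNPK and MTX2 stayed expressed, while EVX2 was too low to be tested. LNPK was at 24.6 ± 1.29 CPM in A2780 and 19.5 ± 1.85 CPM in A2780cis at 12 h (-0.33 ± 0.14, edgeR adjusted p = 0.0422), and MTX2 at 64.9 ± 2 and 62.4 ± 5.84 CPM (-0.06 ± 0.11, edgeR adjusted p = 0.683). HOXD8 shares 24.4% of its exon bases with antisense transcripts, and the strand setting of the counting was not found, so sense and antisense reads cannot be told apart there.

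The HOXA cluster was silent in both lines. Its 11 genes had 36 counts in all over the 24 libraries, with at most 3 for any gene in any library, and HOXA2, HOXA4 and HOXA11 had none. Its members HOXA9, HOXA10, HOXA11 and HOXA13, the classical genes of the Müllerian duct, had 7, 2, 0 and 7 counts over all libraries, and a difference between the groups was not detectable at this depth. Of the genes outside HOXA, HIBADH and SNX10 were expressed, while EVX1 was too low to be tested. HIBADH was at 35.2 and 31.8 CPM and SNX10 at 7.4 and 6.55 CPM in untreated A2780 and A2780cis at 12 h.

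Of 18 long noncoding RNA genes of the clusters, 8 were tested and 4 differed at each time, a share of 50% near the 47.9% and 52.9% of all genes, all 4 lower in A2780cis at 6 h and 3 lower at 12 h, where HOXC-AS3 was higher (1.37 ± 0.31). HOXB-AS3, antisense to HOXB5 and HOXB6, went from 10.4 ± 0.851 CPM in A2780 to 2.66 ± 0.115 CPM in A2780cis at 12 h (-1.97 ± 0.15, edgeR adjusted p = 1.77e-11). HOXB-AS2 was lower by -2.03 ± 0.39, and HOXD-AS2, beside HOXD8, was at 0.426 ± 0.212 CPM in A2780 and had no count in A2780cis. HOXB-AS1, near HOXB2 and HOXB3, was lower by -0.55 ± 0.13 at 6 h, and its -0.26 ± 0.12 at 12 h did not pass the test (edgeR adjusted p = 0.0652). HOTAIR, between HOXC11 and HOXC12, averaged at most 0.105 CPM in untreated cells, and HOTTIP was at 0. Of 6 microRNA genes listed for the clusters, 4 were found, each with a mean of at most 0.281 CPM in untreated cells. MIR10B, beside HOXD4, was at 0.139 and 0.136 CPM in A2780 and at 0 in A2780cis, values of exonic hairpin reads and not of the mature microRNA.

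The comparison of treated with untreated cells asks how each line responds to 5-FdU-ECyd, and it moved few HOX genes. In A2780, 2 of the 22 tested genes changed at 6 h (1 rose, 1 fell), where 29.4% of all tested genes did, and 6 at 12 h (4 rose, 2 fell), where 54.8% did. In A2780cis, 5 changed at 6 h (4 rose, 1 fell) against 30.7% of all genes, and 6 at 12 h (5 rose, 1 fell) against 59.9%. Over the 22 genes these are 9.09%, 27.3%, 22.7% and 27.3%, and over the 13 past the cutoff in both lines 15.4%, 38.5%, 30.8% and 38.5%, where that of A2780cis at 6 h is level with all genes and the others are lower. The 5 tested HOXD genes had too few counts in A2780cis to show a change, as had HOXB13 and HOXC12 in A2780. Scaled by library size alone, the calls were 3 rises at 6 h and 5 at 12 h in A2780 and 5 and 7 in A2780cis, with no fall. The median log2 fold changes of the 22 tested HOX genes at 12 h were 0.06 in A2780 and 0.155 in A2780cis, against 0.02 and 0.04 over all genes. Over the 13 past the cutoff in both lines they were 0.03 and 0.18.

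HOXB2 was past the threshold in all 4 comparisons. In A2780 it went from 16.5, 18.4 and 18.2 CPM untreated to 22.9, 23.7 and 24.6 CPM treated at 6 h, and from 20.6, 22.1 and 22.3 to 45.3, 36.5 and 35.9 CPM at 12 h. In A2780cis it went from 19.8, 17 and 23.1 to 26.5, 30.9 and 27.3 CPM at 6 h, and from 23.2, 24.4 and 25.2 to 33.5, 33.1 and 33 CPM at 12 h. Treated and untreated libraries did not overlap in any of them. The same held for 41.6%, 64%, 43.2% and 59.6% of all tested genes in these 4 comparisons. The log2 fold changes of HOXB2 were 0.43 ± 0.11, 0.85 ± 0.11, 0.50 ± 0.11 and 0.46 ± 0.11 in the same order (edgeR adjusted p = 0.0061, 2.19e-07, 0.00132 and 0.00063). HOXB2 was also the HOXB gene whose level differed least between the untreated lines.

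HOXB3, next to it, passed the test in A2780cis at both times and in A2780 at neither. Its A2780cis values were 20.4, 22.5 and 20.9 CPM untreated and 32.2, 31.6 and 31.3 CPM treated at 6 h, and 23, 22.1 and 23.2 against 36.8, 44.4 and 36.3 CPM at 12 h (0.58 ± 0.11 and 0.78 ± 0.10, edgeR adjusted p = 0.00017 and 2.8e-07). In A2780 at 12 h the untreated 43.9, 40.1 and 45.8 CPM and the treated 42.9, 46 and 43.8 CPM overlapped (0.03 ± 0.10, edgeR adjusted p = 0.799). The difference of the responses was itself past the threshold at 12 h, 0.75 ± 0.14 on the log2 scale (edgeR adjusted p = 0.000451). Treated A2780cis thereby came to 39.2 ± 4.51 CPM, close to the 43.3 ± 2.93 CPM of untreated A2780. HOXB3 shares 6.42% of its exon bases with HOXB4 and HOXB6 on its strand and 5.29% with the antisense RNAs HOXB-AS1 and HOXB-AS3. Both antisense RNAs rose in A2780cis at 12 h, where 4 of the 8 tested noncoding RNAs rose and none fell (50% against 59.9% of all genes). In A2780 at 12 h HOXB-AS1 alone rose, 12.5% against 54.8%. Sense and antisense reads cannot be told apart in the shared bases.

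HOXB4, the next gene, rose in A2780cis at 6 h, from 2.96, 0.802 and 3.03 to 3.83, 4.67 and 3.77 CPM (0.81 ± 0.24, edgeR adjusted p = 0.0109), and without the low untreated replicate 2 its log2 fold change was 0.44 and no longer past the threshold. HOXB5, HOXB6, HOXB7, HOXB8, HOXB9 and HOXB13 passed the test in none of the 4 comparisons, with log2 fold changes from -0.87 to 0.51 at 6 h and from -0.19 to 0.36 at 12 h, leaving out HOXB13 in A2780. The lowest was HOXB9 in A2780cis at 6 h, at 0.924, 1.3 and 0.736 CPM untreated and 0.718, 0.511 and 0.424 CPM treated without overlap (-0.87 ± 0.32, edgeR adjusted p = 0.0653), past the threshold in 2 of 13 alternatives. HOXB7 in A2780 at 12 h (0.36 ± 0.16, edgeR adjusted p = 0.0535) was past it in 5 of 14.

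In HOXC the responses went both ways. HOXC6 rose at 12 h in both lines, from 63.4, 72.4 and 76 to 83.2, 87.2 and 82.9 CPM in A2780 (0.26 ± 0.08, edgeR adjusted p = 0.0124) and from 85.7, 90.2 and 90.7 to 123, 121 and 113 CPM in A2780cis (0.42 ± 0.08, edgeR adjusted p = 0.000118). The A2780 call was lost without untreated replicate 1 or treated replicate 2 and without a filter on low counts (edgeR adjusted p up to 0.118). HOXC8 rose in A2780 from 48.5, 49.8 and 52.2 to 76.1, 68.9 and 61.4 CPM at 12 h (0.45 ± 0.09, edgeR adjusted p = 0.000145). In A2780cis it was 23.3, 24.3 and 24.9 CPM untreated and 25.5, 30.1 and 31.8 CPM treated (0.27 ± 0.09, edgeR adjusted p = 0.0163), a call lost without untreated replicate 1 or treated replicate 2 or 3 (edgeR adjusted p up to 0.204). That call was also lost without a filter on low counts and with the compared samples alone, and held in 9 of 14 alternatives.

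HOXC13 was higher with treatment in both lines, from near nothing. In A2780cis at 12 h it stood at 0.241, 0.337 and 0.648 CPM untreated and 1.33, 1.09 and 1.68 CPM treated (1.74 ± 0.37). Those treated libraries are the ones that took it past the filter, so this value is a description without a test, though it is among the 6 calls above. At 6 h it went from 0.277, 0 and 0.164 to 0.558, 0.438 and 0.66 CPM at 6 h (1.85 ± 0.63, edgeR adjusted p = 0.0271). The 6 h call was lost without untreated replicate 2 or 3 or treated replicate 3 and by DESeq2's Wald test. It held in 9 of 13 alternatives. In A2780 at 12 h its 3 untreated counts stood against 19 treated ones, with 0.42, 0.391 and 0.243 CPM in the treated libraries (ratio 5.94, exact 95% counting interval 1.75 to 31.3, edgeR adjusted p = 0.00653). It shares 7.3% of its exon bases with the antisense HOXC13-AS.

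HOXC4 fell in A2780, from 8.76, 9.56 and 7.09 to 6.74, 4.54 and 6.67 CPM at 6 h (-0.49 ± 0.15, edgeR adjusted p = 0.0174) and from 10.4, 10.2 and 10.6 to 6.94, 8.26 and 8.02 CPM at 12 h (-0.42 ± 0.14, edgeR adjusted p = 0.0104). The 6 h call was lost without untreated replicate 1 or 2 or treated replicate 2, with library size alone and with the compared samples alone. It held in 9 of 14 alternatives. Its A2780cis values of -0.29 ± 0.12 and -0.24 ± 0.12 did not pass. HOXC9 fell in A2780 at 12 h, from 33.5, 38.9 and 41.1 to 28.4, 27.4 and 27 CPM (-0.46 ± 0.10, edgeR adjusted p = 0.000247). In A2780cis it was 46.2, 50.9 and 53 CPM untreated and 51.3, 53.9 and 58.5 CPM treated at 12 h, which overlapped (0.12 ± 0.09, edgeR adjusted p = 0.262). The difference between the lines was 0.58 ± 0.13 (edgeR adjusted p = 0.00278). Scaled by library size alone, which adds 0.22 to every A2780 log2 fold change at 12 h, HOXC4 and HOXC9 were at -0.20 and -0.24 and no longer past the threshold. At 6 h HOXC9 fell in A2780cis, from 54, 64.1 and 60.2 to 50, 46.7 and 48.5 CPM (-0.30 ± 0.09, edgeR adjusted p = 0.0191), a call lost without untreated replicate 2 or treated replicate 2 or 3. That call was also lost with library size alone, without a filter on low counts, without lncRNA and rRNA genes and with the compared samples alone. It held in 7 of 14 alternatives. HOXC5 was the gene that fell in A2780cis at 12 h, with overlapping libraries (-0.50 ± 0.22, edgeR adjusted p = 0.0464, and up to 0.419 without 1 library or under another setting, among them untreated replicate 3 and treated replicates 1 and 2). HOXC10, the leading HOX gene of A2780cis, passed in no comparison, with -0.07 ± 0.12 in A2780 and 0.20 ± 0.11 in A2780cis at 12 h.

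**Figure D4:**
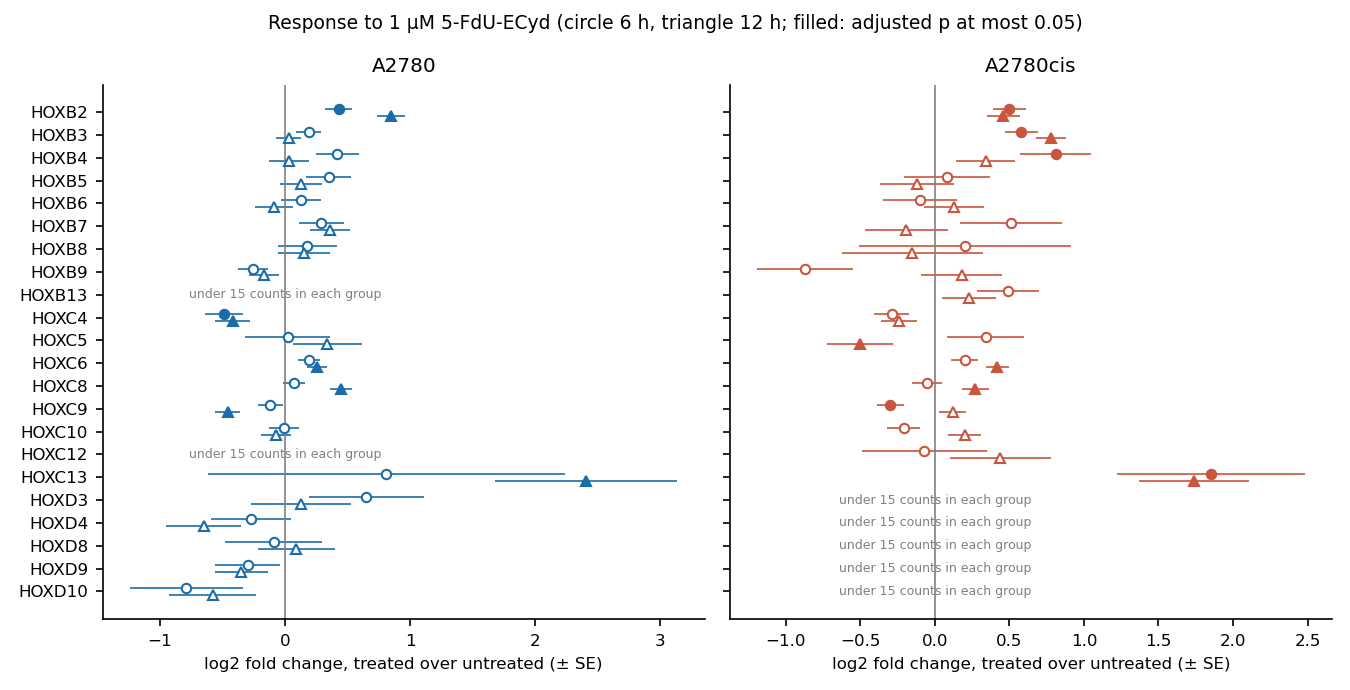
Log2 fold change of treated over untreated cells (x axis, with SE bars, own scale in each panel) for the 22 tested HOX genes (y axis) in A2780 (left, blue) and A2780cis (right, red); circles are 6 h, triangles 12 h, and filled symbols have an adjusted p of at most 0.05. HOXB2 is filled in all 4 comparisons, HOXB3 in A2780cis alone, and of the HOXC genes HOXC4 and HOXC9 lie left of 0 in A2780 at 12 h while HOXC6, HOXC8 and HOXC13 lie right of it.

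No tested HOXD gene changed with treatment in A2780, with log2 fold changes from -0.65 to 0.13 at 12 h, and HOXD4 at -0.65 ± 0.30 had an edgeR adjusted p of 0.0707. Treatment did not bring the HOXD genes back in A2780cis. HOXD3, HOXD4, HOXD9, HOXD10 and HOXD11 had no count in any of its 6 treated libraries, while HOXD8 and HOXD13 had 1 each. HOXD1, at the 3′ end, had 10 counts at 6 h and 9 at 12 h in treated A2780cis against 0 and 1 untreated, at least 2.32-fold higher at 6 h and a ratio of 10.4 (exact 95% counting interval 1.45 to 458) at 12 h. It was too low to be tested and shares 60.1% of its exon bases with antisense transcripts. In the other direction, HOXB13 did not appear in treated A2780, with 0 and 2 counts at 6 h and 12 h.

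The test of whether the response differs between the lines was passed by no HOX gene at 6 h by edgeR, where 3.07% of all genes passed and 1 HOX gene, HOXB3, had an unadjusted p under 0.05. DESeq2 called none at 6 h either. At 12 h 2 of 22 passed, HOXB3 and HOXC9, against 23.7% of all genes. For HOXB2 the response in A2780cis minus that in A2780 was -0.40 ± 0.15 at 12 h and did not pass (edgeR adjusted p = 0.0551). It was past the threshold in 4 of 20 alternatives. These were library size alone, the fit without lncRNA and rRNA genes, the fit without treated A2780 replicate 3 at 12 h, and DESeq2's Wald test. The response in A2780 differed between 12 h and 6 h for HOXB2 and HOXC8 (23.7% of all genes), and in A2780cis for HOXC9 (24% of all genes).

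**Figure D5:**
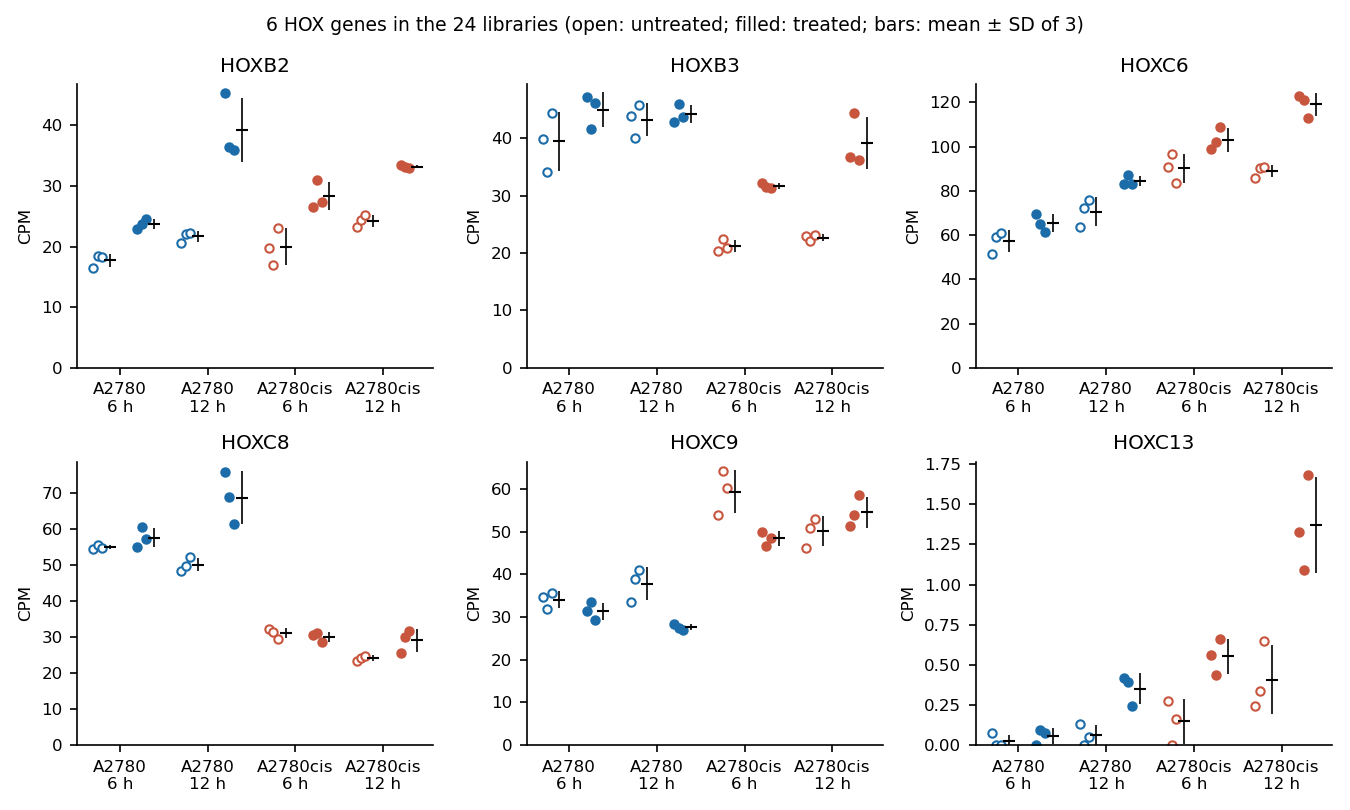
Level in CPM (y axis, from 0) of 6 HOX genes in each of the 24 libraries by line and time (x axis); open circles are untreated, filled circles treated, and the black bars give the mean ± SD of 3 libraries. HOXB3 separates in A2780cis and overlaps in A2780, HOXC9 separates downward in A2780 at 12 h, and HOXC13 stays under 2 CPM throughout.

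Genes that work with HOX proteins or regulate the clusters were counted beside the shares of all genes past the threshold. The TALE cofactors PBX, MEIS and PKNOX bind DNA beside HOX proteins. Of 9 listed, 8 were tested, and 8 differed between the untreated lines at 6 h (4 higher, 4 lower) and 7 at 12 h (3 higher, 4 lower), or 100% and 87.5% against 47.9% and 52.9% of all genes. PBX3 was at 182 ± 3.07 CPM in A2780 and 38.9 ± 1.96 CPM in A2780cis at 12 h (-2.23 ± 0.10) and MEIS3 at 70.2 ± 4.15 and 5.87 ± 0.815 CPM (-3.58 ± 0.18). With treatment 7 of 8 changed in A2780 at 12 h, all falling (87.5% against 54.8% of all genes), and 5 of 8 in A2780cis, 4 of them falling (62.5%, near the 59.9% of all genes). In A2780 MEIS2 fell from 131 ± 4.52 to 46.4 ± 2.05 CPM, and in A2780cis from 247 ± 5.86 to 59.1 ± 6.07 CPM, and MEIS1 from 65.7 ± 2.32 to 26.3 ± 1.53 and from 61.8 ± 3.69 to 19.2 ± 0.851 CPM (edgeR adjusted p between 9.66e-16 and 2.87e-12).

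Retinoic acid switches on HOX genes from the 3′ end in the embryo. Of 18 genes of its transport, synthesis, breakdown and receptors, 15 were tested and 11 differed between the untreated lines at 12 h, 7 lower and 4 higher in A2780cis (73.3% against 52.9% of all genes). CRABP2, which carries retinoic acid to its receptors, was at 104 ± 12.7 CPM in A2780 and 1.31 ± 0.346 CPM in A2780cis (-6.31 ± 0.20). STRA6, the retinol uptake receptor, was at 21.1 ± 0.619 and 0.034 ± 0.0296 CPM, and ALDH1A3, a retinoic acid synthesizing enzyme, at 0.219 ± 0.0964 and 14.9 ± 0.965 CPM (6.08 ± 0.23). At 12 h of treatment 11 of the 15 changed in A2780 (6 rose, 5 fell), 73.3% against 54.8% of all genes, and 7 in A2780cis (3 rose, 4 fell), 46.7% against 59.9%. The receptor RXRA fell in both, by -1.31 ± 0.16 and -1.98 ± 0.17, and ALDH1A3 rose in both, by 4.71 ± 0.26 and 1.01 ± 0.13 (edgeR adjusted p between 7.97e-14 and 1.73e-07). CDX1, CDX2, CDX4, EVX1 and EVX2, caudal and even-skipped genes tied to 5′ HOX control, were too low to be tested.

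Polycomb proteins keep silent HOX clusters silent and Trithorax proteins keep active ones active. Of 34 Polycomb genes tested, 16 differed between the untreated lines at 12 h (7 higher, 9 lower), a share of 47.1% against 52.9% of all genes, and of 22 Trithorax and H3K27 demethylase genes 11 (6 higher, 5 lower), 50% against 52.9%. MTF2, a partner of the Polycomb repressive complex, was at 116 ± 8.63 CPM in A2780 and 31.3 ± 3.57 CPM in A2780cis (-1.89 ± 0.10). KDM6A, which removes the H3K27 mark, was lower by -0.85 ± 0.10, and MLLT3 was at 3.3 ± 0.503 and 0.0348 ± 0.0304 CPM. Treatment for 12 h lowered 12 and raised 8 of the 34 Polycomb genes in A2780 and lowered 20 and raised 8 in A2780cis, or 58.8% and 82.4% against 54.8% and 59.9% of all genes, with SCMH1 at -1.16 ± 0.09 and -1.22 ± 0.09. Of the 22 Trithorax genes 12 fell and 2 rose in A2780, and 13 fell and 2 rose in A2780cis (63.6% and 68.2% against the same shares), among them the listed MLLT10 (-1.34 ± 0.08 and -1.71 ± 0.08) and CTCF, which insulates domains within the clusters (-0.92 ± 0.11 and -1.73 ± 0.11).

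Of 16 genes described elsewhere as targets of HOX factors, 10 were tested and 8 differed between the untreated lines at 12 h, 3 higher and 5 lower in A2780cis (80% against 52.9% of all genes). The ephrin receptors EPHA3 and EPHA7 were at 120 ± 10.7 and 109 ± 15.2 CPM in A2780 and 0.195 ± 0.044 and 0.0688 ± 0.0238 CPM in A2780cis, and TWIST1, a driver of mesenchymal fate, at 58.1 ± 4.87 and 0.0501 ± 0.0483 CPM. Their A2780cis means were under the 0.675 CPM that 10 counts stand for. The shares of this and the other gene lists were not split by whether a gene passed the count cutoff in both lines. With treatment 9 of the 10 changed in A2780 at 12 h and 7 in A2780cis (90% and 70% against 54.8% and 59.9% of all genes). CDKN1A, the p53-induced cell cycle inhibitor, rose from 44.6 ± 1.37 to 330 ± 7.98 CPM and from 12.9 ± 0.823 to 225 ± 12.1 CPM (2.89 ± 0.11 and 4.12 ± 0.12, edgeR adjusted p = 5.34e-17 and 6.9e-19).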

How the data were processed

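Whole transcriptome sequencing of 24 libraries in 8 groups of 3 was analysed. The authors deposited 1 table of expected counts, for which, per the labels and the study's methods, reads were trimmed with Trimmomatic, aligned with STAR 2.5.2b to GRCh38.p7 and counted on exons with featureCounts, with fractions for reads of several alignments and with reads over several genes counted for each. The strand setting was not found, and the labels describe single reads where the paper describes paired ones. Counts were rounded. Gene names, exon lengths and overlaps came from GENCODE release 44, which lists 56948 of the 63299 identifiers.

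The filter filterByExpr, with at least 10 counts per library and 15 in all as its limits, left 20240 genes. After TMM normalization they were tested with the quasi-likelihood model of edgeR 4.0.16 in R 4.3.3, which had a coefficient for each group and left 16 degrees of freedom. Tests were two-sided, with Benjamini-Hochberg adjustment over all tested genes and a threshold of 0.05. SE is the absolute log2 fold change divided by the square root of F. Groups without counts were set to a floor of 3 counts over 3 libraries. Groups with 1 to 3 counts have exact 95% Clopper-Pearson intervals. Intervals and floors cover counting error only. The fit was tested on simulated data. DESeq2 1.42.0 gave an alternative test. Promoter windows came from the RefSeq table and were searched on both strands, with overlapping matches counted.

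The genes, the lists and the tests were chosen with earlier results of these data known. Genes given in full are, per cluster, up to 4 with the smallest p past the threshold and the same direction at both times. For treatment they are up to 4 rises and 4 falls per line at 12 h without overlap and with a mean of at least 1 CPM in the higher group. For the interaction they are up to 4 with the smallest p. Of other lists at most 3 genes per comparison are named. A gene that this rule names among the cofactors is not reported here. The flanking genes, the noncoding RNAs below the count minimum and the other HOX genes with values were named after their values were seen. No 2 replicates agreed within sampling noise. Figures were drawn with Python 3.11.15 and matplotlib 3.10.9.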

Additional observations from a re-analysis of the deposited data

Results flagged for a closer look

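The treatment response of HOXB3 differed between the lines at 12 h by a log2 value of 0.75, with 0.78 in A2780cis and 0.03 in A2780, and that of HOXC9 by 0.58, with 0.12 and -0.46. Both were singled out because the difference itself passed edgeR's test (adjusted p = 0.000451 and 0.00278), and they were past the threshold in all 20 alternative fits. In A2780 the response at 12 h exceeded that at 6 h by 0.43 for HOXB2 (edgeR adjusted p = 0.047) and by 0.38 for HOXC8 (edgeR adjusted p = 0.0323), and these were past it in 10 and 12 of 20 alternatives. The HOXB2 value lost the call without any 1 of 9 libraries (at 6 h untreated replicates 2 and 3 and treated replicates 1 to 3, at 12 h untreated replicates 1 to 3 and treated replicate 1), with an adjusted p of up to 0.203 over the alternatives. The HOXC8 value lost it without any 1 of 7 (at 6 h untreated replicates 1 and 2 and treated replicates 1 and 3, at 12 h untreated replicate 2 and treated replicates 1 and 2), with an edgeR adjusted p of up to 0.202. In A2780cis the response of HOXC9 at 12 h exceeded that at 6 h by 0.42 (edgeR adjusted p = 0.0228), past it in 15 of 20 alternatives. That call was lost without untreated replicate 2 at 6 h, untreated replicate 1 at 12 h or treated replicate 3 at 12 h (edgeR adjusted p of up to 0.221).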

How the results depend on the processing

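Of 65 calls on HOX genes, 52 held under every alternative of their comparison and none changed sign: a replicate block, scaling by library size alone or by DESeq2's size factors, unrounded counts, no filter on low counts, no lncRNA or rRNA genes, a fit of only the samples compared, DESeq2's Wald test, and each library left out in turn. Between the untreated lines 19 of 20 calls held at 6 h and 21 of 21 at 12 h. At each time 12 of these calls were on the 13 genes past the cutoff in both lines. The other calls between the lines, also counted among the 65, were on genes tested only because 1 line was high and are descriptions. Leaving out 1 library at a time gave 1 to 2 treatment calls in A2780 and 2 to 6 in A2780cis at 6 h. For the difference of the responses between 12 h and 6 h it gave 0 to 2 calls in A2780 and 0 to 3 in A2780cis. Without a filter on low counts that difference gave 0 calls in either line, and with the compared samples alone 0 in A2780cis. With a replicate block it gave 2 calls in A2780cis in place of 1, and the block moved no other count by over 1.5 times. Same-numbered libraries deviated together, with a correlation over 0.1, in 5 of 18 pairs (correlations of deviations from -0.452 to 0.491). Deviations from means of 3 libraries cannot show whether same-numbered libraries were handled together. Library size alone added 0.22 to log2 fold changes of A2780 at 12 h and -0.10 to those between the lines at 6 h, and the cause was not tested. Under it HOXC4 and HOXC9 in A2780 at 12 h were at -0.20 and -0.24. The summed level of HOXB was then 13.5 CPM per kb in untreated A2780cis at 6 h, and 64.1 and 27.6 in treated A2780 and A2780cis at 12 h. That of HOXC was 76.8 and 119 in untreated A2780 and A2780cis and 117 in treated A2780cis at 6 h, and 103 and 150 in treated A2780 and A2780cis at 12 h. In A2780, HOXC6 at 12 h was at 0.23 without a filter. Differences in HOXA, HOXB1, HOXC11 and HOXD12 were not detectable at this depth, where 10 counts stand for 0.675 CPM.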
